A study of Homo sapiens with 28 samples.

Results

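Genes of the secretory program of prostate luminal cells, AZGP1, ORM1, MSMB, SLC45A3, TPD52, NDRG1, PMEPA1, RAB3B, SORD and ABCC4, were followed through all 8 treatment groups of an RNA-Seq experiment in LNCaP cells. They were found in the count table by gene symbol and are 10 of the 61815 human genes counted.

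LNCaP is an androgen-responsive human prostate cancer line established from a lymph node metastasis. All cells were genotype WT and spent 72 h in charcoal-stripped serum, which removes most steroid hormone, before treatment. In the first experiment 4 groups of 3 libraries were harvested after 24 h with vehicle (0.1% DMSO), 1 µM Senexin B, 0.1 nM R1881, or R1881 and Senexin B together. In the second experiment 4 groups of 4 libraries were harvested after 72 h with vehicle (0.1% DMSO), 500 nM SNX631, 1 nM R1881, or R1881 and SNX631 together. R1881 is a synthetic androgen, and Senexin B and SNX631 inhibit CDK8 and CDK19, the kinases of the Mediator complex. The design compares the effect of R1881 on transcript levels with and without an inhibitor, and that of each inhibitor with and without R1881. The experiments differed in time, R1881 dose and inhibitor at once, so these cannot be told apart between them. Every group comes from 1 cell line, nothing in the labels says whether replicates were separate cultures, and the p-values measure only the spread between libraries, which may be technical.

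Luminal cells line the prostate ducts and make the proteins, sugars and ions of prostatic fluid. Testosterone-derived hormones act through the androgen receptor, a transcription factor that enters the nucleus on binding hormone and activates genes from nearby and distant DNA elements. AZGP1, ORM1 and MSMB encode secreted proteins. SLC45A3 (prostein) and ABCC4 (an efflux pump for cyclic nucleotides and prostaglandins, also called MRP4) are membrane transporters, SORD makes fructose from sorbitol, and RAB3B and TPD52 act in vesicle traffic. PMEPA1 is a membrane adaptor that binds NEDD4 family ubiquitin ligases, and NDRG1 is a cytoplasmic protein induced by hypoxia and differentiation.

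In GENCODE 29 (GRCh38) AZGP1 lies on chromosome 7 from 99966720 to 99976157 (minus strand), ORM1 on chromosome 9 from 114323056 to 114326475 (plus), MSMB on chromosome 10 from 46033307 to 46046269 (minus) and SLC45A3 on chromosome 1 from 205657851 to 205680459 (minus). TPD52 lies on chromosome 8 from 80034745 to 80231232 (minus), NDRG1 on chromosome 8 from 133237171 to 133302022 (minus) and PMEPA1 on chromosome 20 from 57648392 to 57711536 (minus). RAB3B lies on chromosome 1 from 51907956 to 51990764 (minus), SORD on chromosome 15 from 45023104 to 45077185 (plus) and ABCC4 on chromosome 13 from 95019829 to 95301475 (minus). PMEPA1 overlaps NKILA on the opposite strand, and TPD52, RAB3B and SORD also overlap other annotated transcripts. Whether the counting used strand is not given in the sources used here, so reads of overlapping genes could not be separated with certainty. Fractional counts, which arise when a read is shared, occurred for TPD52 in 19 of 28 libraries, NDRG1 in 16, AZGP1 and SORD in 12 each, SLC45A3 in 6 and PMEPA1 in 1.

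Library totals ran from 9846595 to 33809419 counts, the deepest being vehicle replicate 3 at 24 h and the next 15248512. The biological coefficient of variation was 2.72% at 24 h and 2.38% at 72 h. Among luminal prostate markers, KRT8 was at 450.7 to 1000 CPM (counts scaled to a common library size by TMM), KRT18 at 275 to 634 CPM, HOXB13 at 305 to 470.8 CPM and FOLH1 at 674 to 1509 CPM over all libraries. TMPRSS2 (14.0 to 267 CPM) and KLK3 (0.69 to 146 CPM) ranged more widely. Of other luminal secretory genes TGM4 had no count in any library, and KLK11 averaged at most 0.0593 CPM in any group. Of 8 basal markers 6 stayed under 1 CPM in every group, as did 6 to 7 of 8 neuroendocrine markers and 9 to 10 of 12 stromal, endothelial and immune markers. Over the whole basal list the summed level was 49.4 to 66.5 CPM, carried by DST and ITGA6, and 2 to 5 of its 8 genes were at 0 in every library of a group. The neuroendocrine sum was 40.7 to 46.1 CPM without R1881 and 18.8 to 28.8 CPM with it, and rests on few of the 8 markers. By the limits given below, 1 of 2 tested neuroendocrine markers was lower with R1881 at 24 h and at 72 h. Among all genes 9.19% and 10.1% were lower. The stromal, endothelial and immune sum was lower with inhibitor, without overlap. At 24 h this sum was 25.8 to 28.6 CPM in vehicle and 13.5 to 15.6 CPM with Senexin B, and 18.9 to 20.03 CPM with R1881 and 11.1 to 11.7 CPM with both. At 72 h it was 31.3 to 34.5 CPM in vehicle and 21.4 to 24.6 CPM with SNX631. With R1881 it was 22.3 to 29.5 CPM, and with both 15.2 to 17.7 CPM. By the limits given below, 1 of 4 tested genes of this list was lower with Senexin B, without and with R1881. Of 3 tested at 72 h, 1 was lower with SNX631 alone, and with R1881 1 was lower and 1 higher. Among all genes 3.12% to 4.77% changed in these contrasts. The sum thus rests on few of the 12 markers. KRT5, KRT17, INSM1 and CD3E had no count in any library. The part of these markers in the results was not tested. In whole-culture RNA, fewer cells making a transcript and less RNA per cell cannot be told apart.

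Of the 10 members 8 passed the filter on low counts in each experiment, and ORM1 and MSMB did not. A gene was called changed when the edgeR quasi-likelihood test gave a false discovery rate (FDR, Benjamini-Hochberg over all genes tested) under 0.01 and a fold change over 1.5, the cutoffs of the study.

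R1881 raised all 8 tested members in both experiments, with and without an inhibitor. Without inhibitor the members rose 3.34- to 10.9-fold at 24 h and 3.44- to 10.0-fold at 72 h. All 8 were called higher at 24 h, when 9.81% of the 15948 genes tested were, and all 8 at 72 h, when 9.7% of 16074 were. The members were chosen with earlier results of these data known, so these shares are a description and no test of the list. Their median log2 fold change was 2.25 at 24 h and 2.24 at 72 h, and that of all tested genes was -0.02 and -0.01. Every R1881 library was above every vehicle library for all 8 members in both experiments, which was the case for 31.7% of tested genes at 24 h and 29.4% at 72 h. In Senexin B treated cells the 8 members were again called higher (9.97% of all genes), with a median of 2.17, and in SNX631 treated cells likewise (10.1%), with a median of 2.18. By fold change SLC45A3 ranked 90th from the top of all tested genes at 24 h and SORD, the lowest of the 8, ranked 449th.

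**Figure D1:**
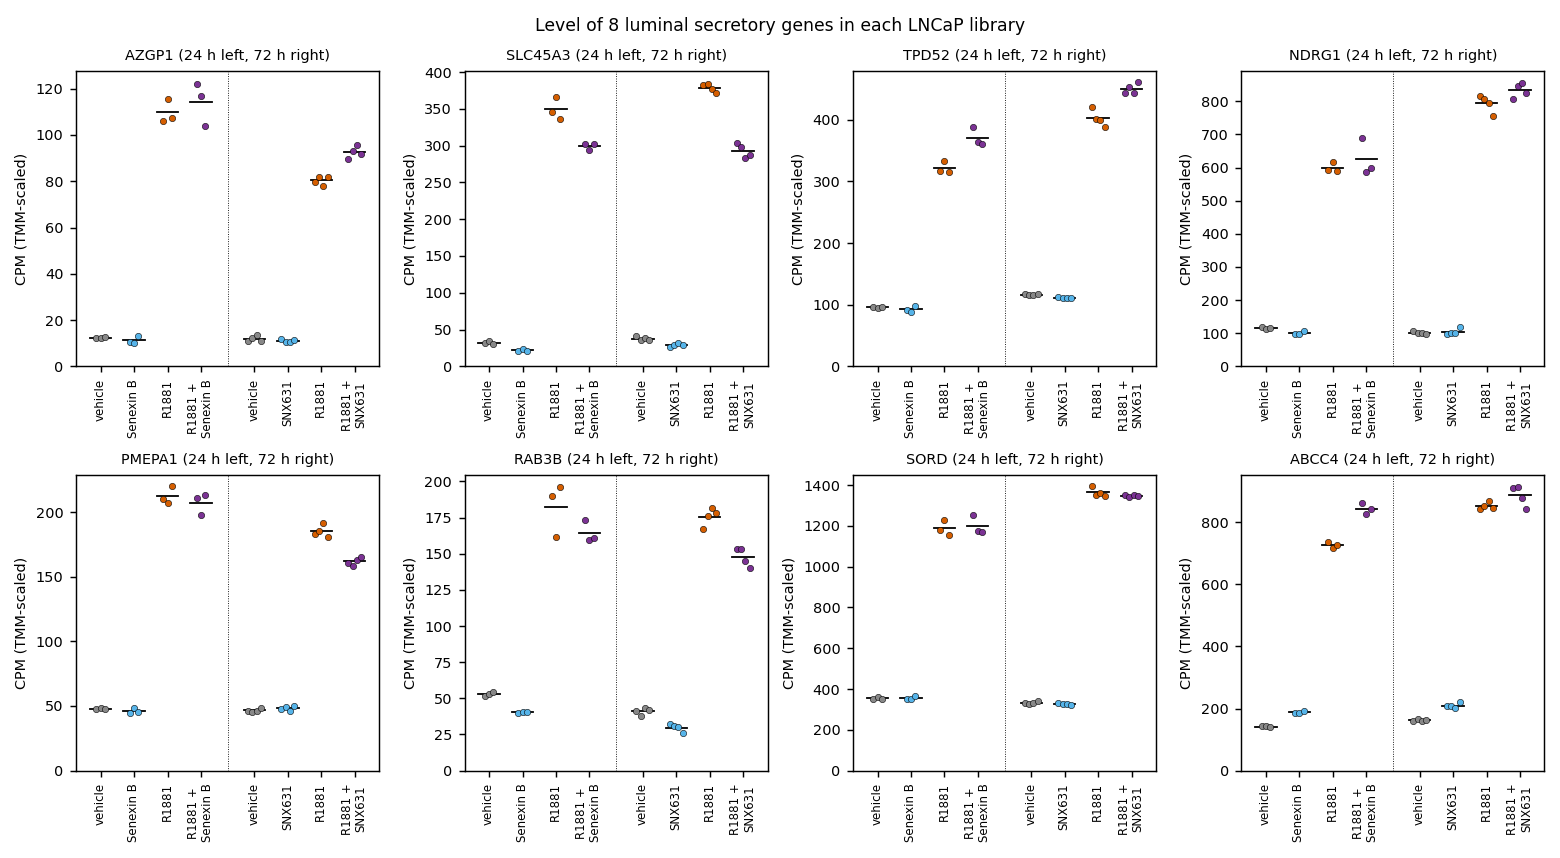
TMM-scaled CPM (linear axis from 0) of the 8 tested members in each of 28 libraries, with a point per library, a bar at the group mean, and the 24 h groups to the left and 72 h groups to the right of the dotted line. In every panel the R1881 libraries, with or without inhibitor, lie above all libraries without R1881.

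Per kilobase of exon, SORD had the highest level of the 8 in every group, at 57.6 CPM per kb in vehicle and 192.8 CPM per kb with R1881 at 24 h. RAB3B had the lowest, at 4.13 and 14.2 CPM per kb. In vehicle at 24 h the order was SORD, ABCC4 (16.4 CPM per kb), NDRG1 (11.8), TPD52 (11.7), SLC45A3 (8.69), PMEPA1 (8.53), AZGP1 (4.59) and RAB3B, and the pairs NDRG1 with TPD52 and SLC45A3 with PMEPA1 were closer than the spread of their libraries. With R1881 SLC45A3 moved from place 5 to place 2 (94.4 CPM per kb), followed by ABCC4 (84.1) and NDRG1 (61.0). AZGP1 (40.7 ± 1.92, SD, n = 3) and TPD52 (39.3 ± 1.17) then differed by less than the SD of AZGP1, and PMEPA1 (37.8 ± 1.20) came next. These levels use lengths from GENCODE 29, which may not be the annotation used for counting.

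AZGP1, a secreted zinc-binding glycoprotein of seminal fluid, was at 12.1, 12.4 and 12.7 CPM in the vehicle libraries at 24 h and at 106, 116 and 108 CPM with R1881. At 72 h it was at 11.1, 12.2, 13.4 and 10.9 CPM in vehicle and at 79.8, 81.9, 77.9 and 81.9 CPM with R1881. The groups did not overlap at either time, and the log2 fold changes were 3.13 ± 0.068 (SE, FDR 1.49e-27) and 2.75 ± 0.055 (FDR 7.8e-33). In vehicle it was among the least abundant of the 8 per kilobase. With Senexin B alone AZGP1 was at 10.6, 10.3 and 13.3 CPM and with SNX631 alone at 11.9, 10.4, 10.5 and 11.6 CPM, both overlapping vehicle. With R1881 it was at 122, 117 and 104 CPM under Senexin B, overlapping R1881 alone. Under SNX631 with R1881 it was at 89.7, 93.0, 95.6 and 91.6 CPM, with every library above those with R1881 alone.

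ORM1 and MSMB, the other secreted members, had at most 18 counts in a library. ORM1 encodes orosomucoid, a plasma glycoprotein of the acute-phase response. Its vehicle libraries at 24 h held 0, 2 and 1 counts and its R1881 libraries 3, 7 and 13, a ratio of 13.6 by depth (95% counting interval 4.12 to 70.9). At 72 h vehicle held 0 counts in all 4 libraries and R1881 held 4, 18, 6 and 6, or at least 12.6-fold more against a floor of 3 counts over the group. R1881 and vehicle libraries of ORM1 did not overlap at either time, and at 72 h replicate 2 gave 18 of the 34 counts. With Senexin B, ORM1 counts were 5, 1 and 1 without R1881 and 4, 2 and 6 with it, a ratio of 1.9 (0.688 to 5.68). With SNX631 they were 1, 2, 0 and 1 without R1881 and 3, 8, 4 and 5 with it, a ratio of 4.49 (1.51 to 18.1). The Senexin B groups overlapped and the SNX631 groups did not. ORM2, its near-identical neighbor, averaged 0.0649 CPM in vehicle and 0.419 CPM with R1881 at 24 h and 0.0211 and 1.13 CPM at 72 h. ORM1 had a fractional count in 0 of 28 libraries. How reads that match both genes were assigned is not given in the sources used here.

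MSMB encodes beta-microseminoprotein, a major protein of the normal prostate's secretion. At 24 h it had 1, 0 and 0 counts in vehicle and 2, 3 and 1 with R1881, a ratio of 10.7 (1.29 to 491), and at 72 h 1, 2, 0 and 0 in vehicle and 3, 2, 1 and 4 with R1881, a ratio of 3.71 (0.956 to 21). It had no count in the Senexin B libraries and 0, 0 and 2 with Senexin B and R1881, so no fold is given. With SNX631 it had 0, 1, 0 and 0 counts without R1881 and 0, 1, 3 and 4 with it, a ratio of 7.19 (0.964 to 319). Groups overlapped in each MSMB comparison, and differences were near the limit of detection at this depth. Intervals and floors cover counting error only.

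**Figure D2:**
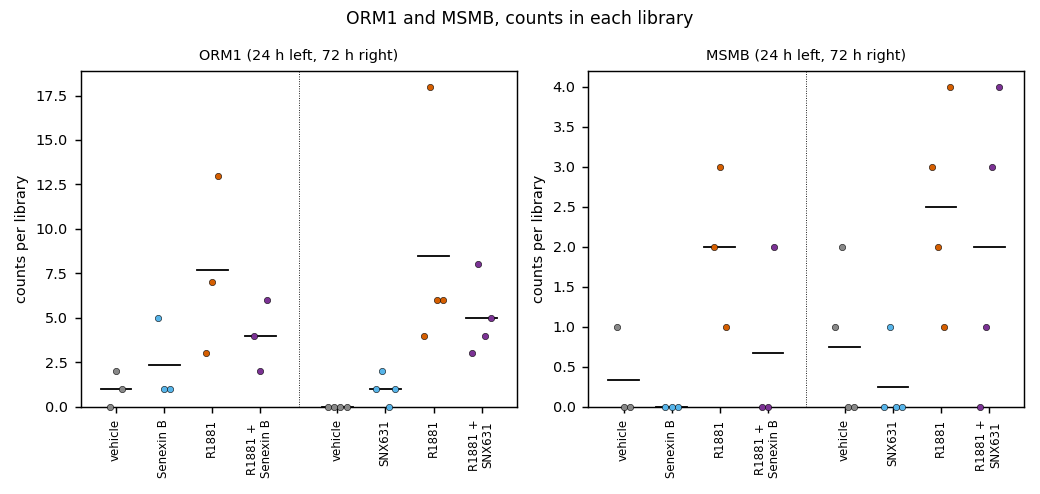
Counts per library (not scaled for depth, linear axis from 0) of ORM1 and MSMB in the 8 groups, with a point per library and a bar at the group mean. ORM1 reached 13 and 18 counts in single R1881 libraries, while MSMB did not exceed 4 counts in any library.

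SLC45A3, the transporter prostein, was at 31.4, 34.4 and 30.8 CPM in vehicle and 346, 365 and 337 CPM with R1881 at 24 h. At 72 h the values were 41.6, 35.6, 38.6 and 35.2 CPM in vehicle and 383, 384, 377 and 372 CPM with R1881. SLC45A3 rose the most of the 8 members, by 10.9-fold at 24 h (log2 3.45 ± 0.044, FDR 3.2e-33) and 10.0-fold at 72 h (log2 3.32 ± 0.039, FDR 1.66e-40). Senexin B alone gave 21.0, 23.7 and 21.1 CPM and SNX631 alone 26.1, 28.7, 31.2 and 28.6 CPM. With R1881 the values were 302, 295 and 302 CPM under Senexin B and 304, 298, 283 and 287 CPM under SNX631. In each of these 4 inhibitor comparisons every inhibitor library of SLC45A3 lay below every matched library without inhibitor.

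ABCC4, the efflux pump, was at 143, 144 and 139 CPM in vehicle and 736, 717 and 726 CPM with R1881 at 24 h, a log2 fold change of 2.35 ± 0.032 (FDR 1.04e-32). At 72 h it was at 159, 168, 159.6 and 165 CPM in vehicle and 843, 854, 868 and 847 CPM with R1881, a log2 fold change of 2.38 ± 0.028 (FDR 1.66e-40). Its groups with and without R1881 were far apart at both times. ABCC4 was the one member at FDR under 0.01 that was higher with both inhibitors in the absence of androgen, at 186, 186 and 192 CPM with Senexin B and 207, 208, 203 and 219.5 CPM with SNX631. In R1881 treated cells it was at 861, 827 and 843 CPM with Senexin B, all above R1881 alone, and at 911, 914, 878 and 843 CPM with SNX631, which overlapped R1881 alone.

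RAB3B, a small GTPase of secretory vesicles, was at 51.8, 53.0 and 54.4 CPM in vehicle and 189.7, 162 and 196 CPM with R1881 at 24 h (log2 fold change 1.77 ± 0.052, FDR 7.1e-24). After 72 h RAB3B was at 41.3, 37.8, 43.1 and 42.2 CPM and 167, 176, 182 and 178 CPM (log2 2.09 ± 0.044, FDR 4.3e-32). Neither pair of groups overlapped. With Senexin B alone it was at 40.0, 40.9 and 40.7 CPM and with SNX631 alone at 32.4, 30.6, 29.9 and 26.0 CPM, in each case with every library below vehicle. With R1881 it was at 173, 159.6 and 161 CPM under Senexin B, overlapping R1881 alone, and at 153, 153, 145 and 140.3 CPM under SNX631, below every R1881 library.

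TPD52, a coiled-coil protein of vesicle traffic, was at 95.9, 94.8 and 96.4 CPM in vehicle and 317, 333 and 316 CPM with R1881 at 24 h (log2 1.75 ± 0.038, FDR 2.03e-27). The 72 h values were 118, 115, 115 and 117 CPM and 421, 401, 399 and 389 CPM (log2 1.78 ± 0.027, FDR 7.75e-37). The R1881 groups stood clear of vehicle. Senexin B alone left it at 91.7, 88.0 and 97.2 CPM, overlapping vehicle. SNX631 alone left it at 112, 111, 111 and 111 CPM, just below vehicle (log2 -0.07, FDR 0.0798, above the limit of 0.01). With R1881 it was at 389, 364 and 361 CPM under Senexin B and 443, 453, 443 and 461 CPM under SNX631, in both cases with every library above R1881 alone.

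SORD, sorbitol dehydrogenase, was at 349, 362 and 352 CPM in vehicle and 1181, 1228 and 1153 CPM with R1881 at 24 h (log2 1.74 ± 0.034, FDR 6.18e-29). At 72 h it was at 332, 329, 329.8 and 340.2 CPM and 1396, 1353, 1362 and 1345 CPM (log2 2.03 ± 0.02, FDR 5.16e-43). Its R1881 and vehicle groups were again separate. With the inhibitors it was at 352, 350.3 and 367 CPM under Senexin B, 331, 328, 326 and 324 CPM under SNX631, 1255, 1175 and 1170.1 CPM under R1881 and Senexin B, and 1349.7, 1342, 1352 and 1347 CPM under R1881 and SNX631. The 95% intervals of its log2 change by inhibitor were -0.06 to 0.07, -0.07 to 0.01, -0.05 to 0.08 and -0.06 to 0.01 in that order. SORD has a related pseudogene in the human genome, and how shared reads were assigned is not given in the sources used here.

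NDRG1 was at 118, 114 and 117 CPM in vehicle and 593, 618 and 588 CPM with R1881 at 24 h (log2 2.36 ± 0.046, FDR 7.56e-29). At 72 h it was at 107, 99.2, 100.2 and 98.4 CPM and 815, 808, 795 and 756 CPM (log2 2.97 ± 0.036, FDR 6.09e-40). The fold was 5.15 at 24 h and 7.81 at 72 h. With Senexin B alone NDRG1 was at 97.9, 96.3 and 107 CPM, under every vehicle library, and SNX631 alone gave 97.8, 102, 102 and 119 CPM, overlapping vehicle. With R1881 it was at 688, 587 and 599 CPM under Senexin B and 807, 846, 855 and 825 CPM under SNX631, both overlapping R1881 alone.

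PMEPA1, the ubiquitin ligase adaptor, was at 47.3, 48.7 and 47.8 CPM in vehicle and 209.8, 207 and 220.0 CPM with R1881 at 24 h (log2 2.14 ± 0.041, FDR 6.06e-29). In the second experiment it was at 46.4, 45.0, 46.0 and 48.7 CPM and 183, 185, 191 and 181 CPM (log2 1.99 ± 0.035, FDR 1e-34). The groups did not overlap. The inhibitors alone left it at 44.5, 48.1 and 45.0 CPM (Senexin B) and 47.6, 49.6, 46.1 and 50.2 CPM (SNX631), overlapping vehicle. With R1881 it was at 211, 198 and 213 CPM under Senexin B, overlapping R1881 alone, and at 161, 158, 163 and 165 CPM under SNX631, below every R1881 library.

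**Figure D3:**
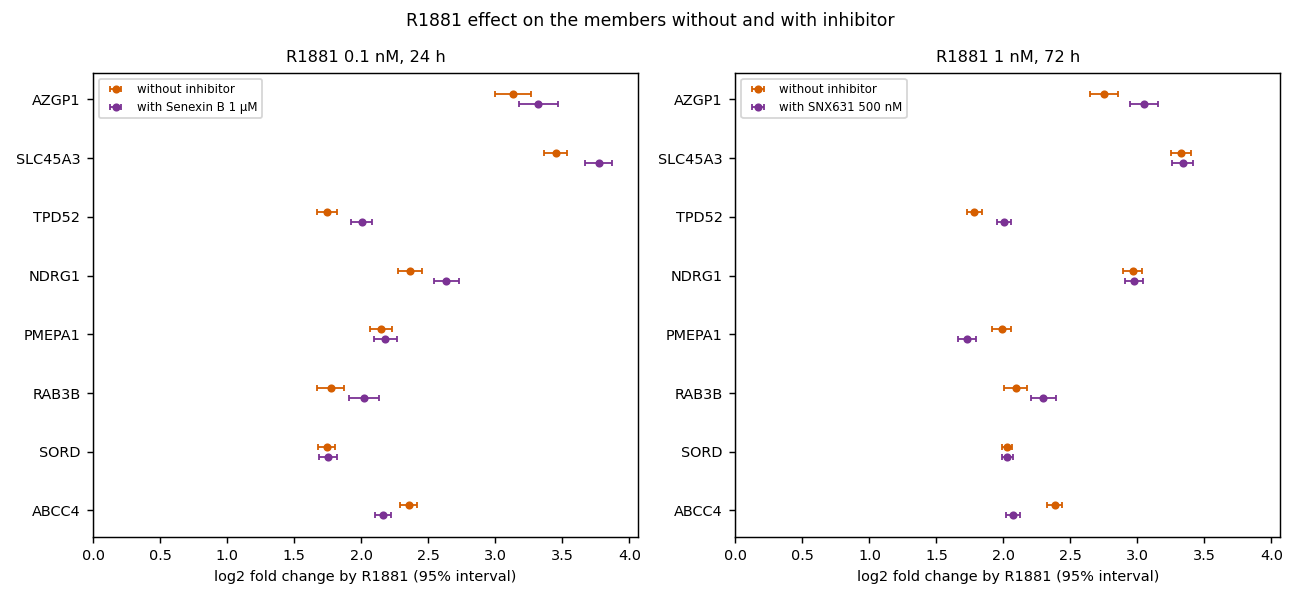
Log2 fold change by R1881 (x axis, 95% interval as bars) of the 8 tested members without and with inhibitor, at 24 h (0.1 nM R1881, Senexin B) and at 72 h (1 nM R1881, SNX631). All values lie between 1.73 and 3.77 and all intervals are above 0.

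No member was called changed by an inhibitor. For the inhibitor comparisons, the share of all genes whose libraries did not overlap was not counted. The separations of libraries given above for them are therefore a description. With Senexin B, edgeR called 0 of 8 members without R1881 (3.79% of all genes) and 0 of 8 with R1881 (3.12%), and with SNX631 0 of 8 (4.77%) and 0 of 8 (4.12%). DESeq2 also called 0 in each, and at an unadjusted p under 0.05 the counts were 4, 4, 4 and 5 of 8, beside 44%, 42.1%, 44.6% and 49% of all genes. Without the limit on fold change, at FDR under 0.01 alone, 4 of 8 members differed with Senexin B (25.1% of all genes), 3 with Senexin B and R1881 (22.7%), 3 with SNX631 (26.9%) and 5 with SNX631 and R1881 (33.1%). These changes went in both directions and were small, and the median over the 8 members was -0.10, 0.03, -0.05 and 0.01 on the log2 scale, against at most 0.01 in size over all genes. The count with Senexin B alone turned on single libraries. Without vehicle replicate 3 the log2 change of SLC45A3 by Senexin B was -0.60, and without Senexin B replicate 2 it was -0.59, and in both cases SLC45A3 was called lower.

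Under Senexin B alone SLC45A3 was lower (log2 -0.54, 95% interval -0.67 to -0.42, FDR 8.09e-08), RAB3B lower (-0.40, FDR 9.21e-06), NDRG1 lower (-0.21, FDR 0.00165) and ABCC4 higher (0.41, FDR 4.41e-11). Under SNX631 alone SLC45A3 (-0.39, FDR 6.21e-07) and RAB3B (-0.47, FDR 3.65e-08) were lower and ABCC4 higher (0.36, FDR 2.39e-12). The NDRG1 change by Senexin B missed FDR 0.01 without vehicle replicate 3 (log2 -0.20, FDR 0.0121), Senexin B replicate 1 (-0.19, FDR 0.0124) or Senexin B replicate 2 (-0.17, FDR 0.0222). NDRG1 had a log2 value of 0.05 with SNX631 (95% interval -0.03 to 0.13), which did not pass. In R1881 treated cells SLC45A3 was lower under Senexin B (-0.22, FDR 9.1e-06) and SNX631 (-0.38, FDR 1.48e-13), and TPD52 was higher under both (0.20, FDR 3.18e-05, and 0.15, FDR 1.71e-06). ABCC4 was higher under Senexin B with R1881 (0.21, FDR 7.95e-07). Under SNX631 with R1881, RAB3B (-0.26, FDR 1.16e-07) and PMEPA1 (-0.21, FDR 1.77e-07) were lower and AZGP1 higher (0.19, FDR 4.9e-05). The compounds were used at different doses, times and R1881 levels, so their values stand side by side without a test between them.

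**Figure D4:**
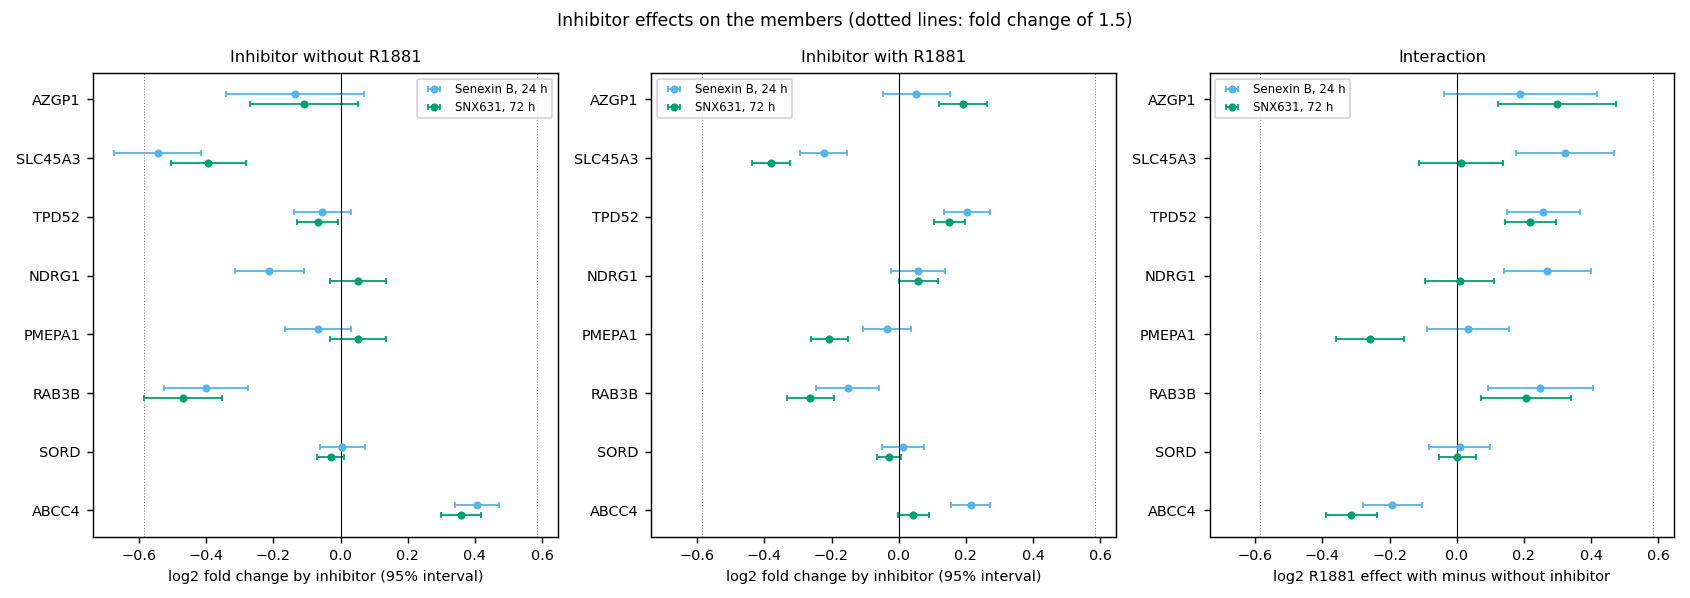
Log2 effects (x axes, 95% intervals as bars) of Senexin B at 24 h and SNX631 at 72 h on the 8 tested members, without R1881 (left), with R1881 (middle), and as the R1881 effect with minus without inhibitor (right), with dotted lines at a fold change of 1.5. All estimates lie within the dotted lines, with SLC45A3 and RAB3B to the left and ABCC4 to the right of 0 for both inhibitors without R1881.

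The interaction, the log2 R1881 effect with inhibitor minus that without, asks whether an inhibitor changed the fold change by R1881. It was called for 0 of 8 members with Senexin B (0.577% of all genes) and 0 of 8 with SNX631 (1.19%) by edgeR, and also 0 by DESeq2, while 5 of 8 had an unadjusted p under 0.05 in each (16.7% of all genes with Senexin B and 25.1% with SNX631). At FDR under 0.01 alone it differed for 3 members with Senexin B (2.09% of all genes) and 3 with SNX631 (7.09%). With Senexin B the R1881 effect was larger for SLC45A3 (by 0.32 ± 0.075, FDR 0.00828) and TPD52 (by 0.26 ± 0.056, FDR 0.00387) and smaller for ABCC4 (-0.19 ± 0.045, FDR 0.00833). With SNX631 it was larger for TPD52 (0.22 ± 0.039, FDR 8.44e-05) and smaller for PMEPA1 (-0.26 ± 0.051, FDR 0.000431) and ABCC4 (-0.31 ± 0.039, FDR 1.64e-07). These are differences of ratios, not of levels. With Senexin B, SLC45A3 averaged 21.9 CPM against 32.2 CPM in vehicle, and with R1881 300 against 349 CPM, lower in both. ABCC4 averaged 188 against 142 CPM, and with R1881 844 against 726 CPM, higher in both. TPD52 averaged 92.3 against 95.7 CPM, and with R1881 371 against 322 CPM. The count of 3 with Senexin B turned on single libraries. It became 0 without vehicle replicate 1, Senexin B replicate 1, R1881 replicate 1 or R1881 replicate 3, and 1 without vehicle replicate 2, vehicle replicate 3 or replicate 1 of R1881 with Senexin B.

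With inhibitor present, the log2 R1881 effect of the members was 91.8% (ABCC4) to 114.7% (TPD52) of that without it at 24 h and 86.8% (ABCC4) to 112.3% (TPD52) at 72 h. KLK3, the gene of prostate-specific antigen, is given for comparison. Its interaction was -1.23 ± 0.28 (FDR 0.00624) with Senexin B and -1.53 ± 0.27 (FDR 6.2e-05) with SNX631, beyond the limit of fold change in both. In R1881 treated cells KLK3 averaged 112 CPM at 24 h and 29.5 CPM with Senexin B, and 137 CPM at 72 h and 46.0 CPM with SNX631. The difference between KLK3 and the members was not itself tested.

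The promoter windows of SLC45A3, RAB3B and ABCC4 are shown because these 3 members had a log2 change in the same direction, at FDR under 0.01, with both inhibitors in the absence of androgen. Each window is 250 bases before to 50 after a RefSeq start (GRCh38.p14), printed 5′ to 3′ on the gene's strand. SLC45A3 is at chr1:205680460-205680759 (minus strand), RAB3B at chr1:51990651-51990950 (minus) and ABCC4 at chr13:95301402-95301701 (minus). Capitals mark GGGCGG, the core of the GC box bound by SP family factors, or its reverse complement CCGCCC.
SLC45A3: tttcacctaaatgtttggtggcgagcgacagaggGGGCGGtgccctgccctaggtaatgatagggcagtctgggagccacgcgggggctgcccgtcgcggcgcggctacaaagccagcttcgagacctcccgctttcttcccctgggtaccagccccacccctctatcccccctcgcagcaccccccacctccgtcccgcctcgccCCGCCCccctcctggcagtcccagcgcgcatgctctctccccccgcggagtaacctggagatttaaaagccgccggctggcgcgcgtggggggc
RAB3B: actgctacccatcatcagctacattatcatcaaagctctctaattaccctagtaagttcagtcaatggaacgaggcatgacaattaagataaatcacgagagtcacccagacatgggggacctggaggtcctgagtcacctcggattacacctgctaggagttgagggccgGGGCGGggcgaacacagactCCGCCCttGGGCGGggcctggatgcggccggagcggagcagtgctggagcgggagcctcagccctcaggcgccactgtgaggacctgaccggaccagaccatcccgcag
ABCC4: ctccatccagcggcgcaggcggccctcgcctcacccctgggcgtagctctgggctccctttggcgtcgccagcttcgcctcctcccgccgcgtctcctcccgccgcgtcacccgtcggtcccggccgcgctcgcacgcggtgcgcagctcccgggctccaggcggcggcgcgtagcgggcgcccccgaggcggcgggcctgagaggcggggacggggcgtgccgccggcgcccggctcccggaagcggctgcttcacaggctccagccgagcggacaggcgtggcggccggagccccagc

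The GC box core was found 2 times in the SLC45A3 window, 3 times in that of RAB3B and 0 times in that of ABCC4, and in 45% of all 35116 RefSeq windows. GC content was 69% for SLC45A3, 58.7% for RAB3B and 79.7% for ABCC4, beside a median of 58.7% over all windows. Member windows on chromosome 8, where TPD52 and NDRG1 lie, were left out of the search. Of the remaining members 6 had at least 1 window, with 9 windows in all, 4 of them of PMEPA1. AGAACA or its reverse complement TGTTCT, the half-site of the androgen receptor element, was in 2 of the PMEPA1 windows, in no other of the 9 and in 14.8% of all windows. TGTTTAC, a forkhead motif (reverse GTAAACA), was in 0 of 9 and in 3.42% of all windows. TATAAA (reverse TTTATA) was in the ORM1 window alone of the 9, and in 11.5% of all windows. CCGGAA (reverse TTCCGG), the core of an ETS factor motif, was in 3 of 9 windows and in 17.2% of all windows. Both strands were searched, and 0 pairs of matches in the 9 windows overlapped each other. These matches describe short windows at the start sites, and say nothing of binding of a factor there or elsewhere.

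Between the experiments, the R1881 effect differed by call for 1 member (1.88% of all genes tested), and 5 of 8 had an unadjusted p under 0.05 (25.6%). The log2 effect on NDRG1 was larger at 72 h with 1 nM than at 24 h with 0.1 nM by 0.61 ± 0.064 (FDR 6.84e-10), with 3 of 3 and 4 of 4 R1881 libraries above vehicle. With library totals in place of TMM this difference was 0.58 and no longer passed the limit on fold change. The other 7 members did not reach a 1.5-fold difference, with values from -0.38 ± 0.10 for AZGP1 (FDR 0.00757) to 0.33 ± 0.075 for RAB3B (FDR 0.00157). Leaving out 1 library took AZGP1 past FDR 0.01 in 8 cases (FDR up to 0.0382, without vehicle replicate 3 at 72 h) and RAB3B in 2 (0.0201 without vehicle replicate 3 at 24 h and 0.0111 without vehicle replicate 2 at 72 h). SORD was at 0.29 ± 0.036 (FDR 4.46e-08). Vehicle cells of the second experiment against those of the first gave 0 called members by edgeR and 0 by DESeq2 (5.97% of all genes by edgeR), and 6 of 8 at an unadjusted p under 0.05 (49.2% of all genes). Among these RAB3B was lower at 72 h (-0.38 ± 0.06, FDR 1.06e-06) and TPD52 higher (0.28 ± 0.035, FDR 7.96e-09).

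Over the 28 libraries the members' log2 CPM profiles were alike, with Pearson's r between pairs of the 8 from 0.936 to 0.997 (median 0.981). All points share the same libraries and the same R1881 contrast. The 2 genes nearest to a member among 13473, given for 7 members, were FAM174B and IDH1 for AZGP1, STK39 and RHOU for TPD52, RHOU and SORD for NDRG1, LINC00844 and KLK4 for PMEPA1, GLUD1 and GREB1 for RAB3B, SMS and OTULINL for SORD, and FKBP5 and ORC5 for ABCC4. These r ranged from 0.9943 (KLK4 with PMEPA1) to 0.9985 (SMS and OTULINL with SORD).

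Other genes of luminal secretion moved in both directions. Of 30 listed, 23 were tested at 24 h and 22 at 72 h, and R1881 raised 10 and lowered 4 at 24 h and raised 12 and lowered 4 at 72 h, with a median log2 fold change of 0.30 and 0.81. The counts of this list and of those that follow stand beside 9.81% raised and 9.19% lowered among all genes after 24 h, with 9.7% raised and 10.1% lowered after 72 h. KLK2 (7.47 and 7.45 at 24 and 72 h), TRPM8, a cation channel (7.12 and 6.97), KLK3 (6.15 and 6.57) and TMPRSS2, a membrane protease (3.72 and 4.10), had the largest mean changes of the list. In vehicle TRPM8 averaged only 0.33 and 0.26 CPM, KLK2 1.26 and 1.90 CPM and KLK3 1.45 and 1.42 CPM. The size of these 3 changes therefore rests on low vehicle counts. Inhibitors with R1881 lowered KLK2 (-2.03 with Senexin B, -1.91 with SNX631), KLK3 (-1.92 and -1.59) and AGR2, an endoplasmic reticulum protein (-1.003 and -0.65). Without R1881 they lowered AGR2 (-1.26 and -1.26) and ACP3, prostatic acid phosphatase (-0.63 and -0.80). At 72 h AGR2 held only 7 to 11 counts per library in vehicle and 2 to 5 with SNX631. ACP3 also fell with R1881 (-1.23 and -1.83).

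Relatives of the members in their gene families gave mixed values. Of 22 relatives 15 were tested in each experiment, and R1881 raised 3 and lowered 2 at 24 h and raised 3 and lowered 3 at 72 h, with medians of 0.01 and -0.04. LDLRAD4, which is related to PMEPA1, rose (1.40 and 3.09), as did ABCC1 (0.91 and 1.05). In the RAB3 family RAB3A had log2 values of 0.02 and -0.07 and RAB3D of 0.28 and 0.47, and in the NDRG family NDRG2 had -0.21 and -0.18 and NDRG3 0.24 and 0.24, none of them called. TPD52L1 rose at 24 h (0.65) and was at 0.51 at 72 h, TPD52L2 was at -0.06 and -0.04, SLC45A1 fell at 24 h (-0.77) and was at 0.05 at 72 h, and SLC45A4 was at -0.18 and -0.06. ABCC6 fell with both inhibitors in the absence of R1881 (-0.83 and -1.12).

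Of 14 genes of the RAB3 and RAB27 vesicle machinery 13 were tested, of which R1881 raised 2 and lowered 2 at 24 h and raised 2 and lowered 3 at 72 h. RAB27A, a GTPase of secretory granules, rose (1.29 and 1.24), as did its effector SYTL1 (0.73 and 0.71), while another effector, SYTL2 (-2.61 and -2.99), and the RAB3 effector RIMS1 (-1.85 and -2.11) fell. RAB27B fell with inhibitor in R1881 treated cells (-0.87 with Senexin B and -0.59 with SNX631). Of 12 genes of polyol, fructose and citrate metabolism other than SORD, 10 were tested at 24 h (1 raised, 1 lowered) and 9 at 72 h (1 lowered and no other called). SLC30A4, a zinc exporter, fell at both times (-0.66 and -0.77). For both lists the median log2 fold change lay between -0.11 and 0.12 at both times.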

How the data were processed

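The authors deposited expected counts per gene, some fractional, for 28 LNCaP libraries made from total RNA with a directional kit. The submitters' processing notes name FastQC, cutadapt 2.8, STAR 2.7.2b, featureCounts, Subread 2.0.3 and the builds GRCh38.p13 and GRCm39. The annotation release, use of strand and sharing of reads are not given in the sources used here. Senexin B doses differ between the labels and the study's text, and the labels were followed.

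Counts were rounded to whole numbers (16.9% of values above 0 were fractional) and 2 added entries with 0 counts were left out. Library totals were 9846595 to 33809419. Each experiment was fitted in edgeR 4.0.16 (R 4.3.3) with TMM scaling, the filterByExpr filter (minimum count 10, total 15), and the quasi-likelihood test over its 4 groups. Contrasts between experiments used all 28 libraries. A call needed FDR under 0.01 together with more than 1.5-fold change. SEs are the log2 fold change divided by the root of the F statistic, and 95% intervals are 1.96 SE. CPM were scaled over all 28 libraries. ORM1 and MSMB were given as counts with exact intervals. The procedure was tested on simulated data with 200 changed genes. Replicates of every group differed by more than sampling noise and were all kept.

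The 10 members and the 7 gene lists used beside them were chosen with earlier results of these data known. All members were named. List genes were named when called in both experiments in the same contrast (at most 4 per list and contrast, by mean change), or as relatives of a member, and for each member the 2 genes with the highest r (those of 1 member are not reported here). Alternatives were DESeq2 1.42.0 and its size factors, library totals, no filter, a minimum of 50 counts, other thresholds, a replicate block, 1 fit of all libraries and leaving out each library. Loci and lengths are from GENCODE 29 and promoter windows from RefSeq on GRCh38.p14. Figures used Python 3.11.15 and matplotlib 3.10.9.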

Additional observations from a re-analysis of the deposited data

Results flagged for a closer look

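The R1881 effect on NDRG1 differed between the experiments. It was larger after 72 h with 1 nM than after 24 h with 0.1 nM by 0.61 ± 0.064 on the log2 scale (SE), by the edgeR test of the difference over all 28 libraries (FDR 6.84e-10). NDRG1 was higher with R1881 in 3 of 3 and 4 of 4 libraries. Time, dose and experiment cannot be told apart. For the 8 tested members in the 4 groups of 4 libraries, the gap of the highest or lowest library from the others was compared with Dixon's critical value for 4 samples, and 0 of 32 comparisons exceeded it.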

How the results depend on the processing

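All 8 tested members were called higher in each of the 4 R1881 contrasts under every alternative and without any single library, and with no filter ORM1 made 9 in R1881 against vehicle at both times. Of 2144 recomputed member values 2076 kept their direction and side of the threshold, 37 passed newly, 1 no longer passed and 30 changed sign. Each value was judged at the threshold of its own alternative. Values that passed at FDR under 0.05 with no limit on fold are therefore among the 37. When single libraries were left out, only SLC45A3 with Senexin B passed newly. The sign changes fell in 11 results whose log2 value was at most 0.0579 in size. Scaling by library totals shifted the median of all genes by -0.10 for R1881 at 72 h (1299 genes called higher and 2121 lower, against 1559 and 1626 with TMM) and by -0.11 for R1881 in SNX631 treated cells (1311 and 2435, against 1619 and 1924). It gave SORD -0.0339 with Senexin B, -0.0228 with Senexin B and R1881 and -0.0043 for the SNX631 interaction, gave PMEPA1 0.0032 for vehicle at 72 against 24 h, and left 0 members called for the R1881 effect at 72 h minus 24 h (NDRG1 0.58). Without a filter SORD with Senexin B was -0.0046. With a minimum of 50 counts it was -0.0002, and its SNX631 interaction was -0.0049. At FDR under 0.05 with no limit on fold the counts were 4 with Senexin B, 4 with Senexin B and R1881 and 4 for that interaction. They were 3 with SNX631, 5 with SNX631 and R1881 and 5 for that interaction. The difference between R1881 effects gave 5 and vehicle gave 6. The share of all genes at this threshold was not counted, so these counts are not read as a result about the members.

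Leaving out single libraries gave 0 to 1 members called with Senexin B and 0 to 4 at FDR under 0.01 for the Senexin B interaction. Log2 ranges were, for SORD, -0.0091 to 0.0265 with Senexin B, -0.0271 to 0.0314 with Senexin B and R1881, -0.0392 to 0.0262 for the Senexin B interaction and -0.0074 to 0.0138 for the SNX631 interaction. For NDRG1 they were -0.0243 to 0.0998 with Senexin B and R1881, -0.0159 to 0.0796 with SNX631 and -0.0222 to 0.0769 for the SNX631 interaction. For PMEPA1 the Senexin B interaction ran from -0.0012 to 0.0633, for AZGP1 Senexin B with R1881 from -0.0073 to 0.1217, and for SLC45A3 the SNX631 interaction from -0.032 to 0.0585. The cause was not tested.

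Samples with the same replicate number did not deviate together (correlation -0.0146 to 0.0668 over 18 pairs at 24 h and -0.0678 to 0.0729 over 24 pairs at 72 h). No pairing by number was seen, but low correlations cannot show that there was none. With a replicate block 8 members were called for R1881 in each contrast, 0 for each inhibitor contrast and each interaction, and the count at FDR under 0.01 rose from 3 to 4 for Senexin B with R1881 and for its interaction. At the depth of these libraries ORM1 and MSMB stayed at 0 to 18 counts, with too few libraries at the minimum of 10 to pass the filter.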
